A study of Mus musculus with 45 samples.

Results

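The genes of the proteasome and of its interferon-inducible form were followed through 3 mouse tissues (liver, skeletal muscle, epididymal fat) in 2 inbred strains on 2 diets. Members were all genes with a probe set that carried exactly 1 symbol starting with Psm, a letter from a to g and a digit. The rule used no measured value and found 46 genes, with 58 probe sets, among the 8251 genes of the array. Of these, 44 encode proteasome subunits, activators or assembly chaperones; Psmc3ip and Psme3ip1 match the pattern but encode no subunit and are kept apart. In each tissue a gene was read by 1 probe set, the one with the highest mean there. Both probe sets for Psme2, the partner of Psme1, also carried the symbol Psme2b, so Psme2 was not analysed here.

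The strains were C57Bl/6 (B6) and 129S6/SvEvTac (129S6), the diets were low-fat and high-fat, and the mice were 6 months old. The 45 arrays fell into 12 groups of tissue, strain and diet, with 4 arrays in most. The exceptions had 3 arrays: low-fat B6 muscle and both diets of 129S6 fat. An array was hybridised with RNA pooled from 2 to 3 mice, and the p-values below therefore rest on the spread of pools. One diet is described in the labels, with fat at 21% of calories, protein at 22% and carbohydrate at 57%, and the labels do not say which of the groups ate it. Values are log2 RMA values. Diet differences are taken as high-fat less low-fat and strain differences as B6 less 129S6. Each difference is given in log2 units with its standard error or with the limma p adjusted by Benjamini and Hochberg over 8251 genes, and "called" means an adjusted p under 0.05.

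The proteasome degrades proteins that carry ubiquitin chains. Its 20S core is a barrel of alpha rings, which gate the entry, around beta rings, in which Psmb5, Psmb6 and Psmb7 hold the active sites; the 19S cap recognises ubiquitin and unfolds the substrate with its Psmc ATPases. Interferons and immune cells replace the active subunits during assembly, Psmb5 by Psmb8, Psmb6 by Psmb9 and Psmb7 by Psmb10, and the resulting immunoproteasome, with the 11S activator of Psme1 and Psme2, changes the peptides made for presentation on MHC class I. Liver parenchyma and muscle fibres are known mainly for the constitutive form, and leukocytes for the inducible one. Among the 46 genes were 14 of the constitutive core (7 alpha, 4 beta without and 3 with an active site), 17 of the cap (6 ATPases and 11 others), the 3 inducible subunits, 7 assembly chaperones and 3 activators (Psme1, Psme3 and Psme4).

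The exchange of an active subunit joins genes with unlike promoters, and the sequences of 2 such pairs are shown because the members of a pair differed in how they varied below. Each is the 250 bases before the transcription start from RefSeq on GRCm38.p6, 5′ to 3′ along the gene's strand, and capitals mark a match to a searched motif:
Psmb5 promoter, chr14:54617996-54618245, minus strand: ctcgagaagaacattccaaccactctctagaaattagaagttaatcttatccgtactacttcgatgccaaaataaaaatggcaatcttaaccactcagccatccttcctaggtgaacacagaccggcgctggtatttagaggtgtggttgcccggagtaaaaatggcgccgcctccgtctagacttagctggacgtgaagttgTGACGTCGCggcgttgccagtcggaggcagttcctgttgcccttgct
Psmb8 promoter, chr17:34197945-34198194, plus strand: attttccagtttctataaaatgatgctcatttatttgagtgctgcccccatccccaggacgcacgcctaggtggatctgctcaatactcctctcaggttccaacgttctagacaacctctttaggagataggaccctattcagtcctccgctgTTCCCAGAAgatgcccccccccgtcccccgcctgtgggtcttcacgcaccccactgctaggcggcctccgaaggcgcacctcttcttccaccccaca
Psmb6 promoter, chr11:70525107-70525356, plus strand: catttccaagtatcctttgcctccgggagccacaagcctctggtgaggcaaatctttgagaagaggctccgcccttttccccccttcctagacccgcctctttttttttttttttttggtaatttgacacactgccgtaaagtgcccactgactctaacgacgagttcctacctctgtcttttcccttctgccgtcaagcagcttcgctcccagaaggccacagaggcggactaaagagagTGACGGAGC
Psmb9 promoter, chr17:34187331-34187580, minus strand: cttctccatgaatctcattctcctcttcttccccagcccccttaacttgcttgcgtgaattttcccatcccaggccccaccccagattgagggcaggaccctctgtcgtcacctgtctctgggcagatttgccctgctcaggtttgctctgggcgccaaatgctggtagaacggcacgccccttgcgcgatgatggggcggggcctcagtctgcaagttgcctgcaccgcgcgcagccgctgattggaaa

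The capitals are TTCNNNGAA, the pattern of the gamma-activated site (GAS) of interferon-responsive promoters, in Psmb8, and TGACNNNGC, the core of the antioxidant response element, in Psmb5 and Psmb6. In Psmb8 the match TTCCCAGAA lay 97 to 89 bases before the start, in Psmb5 TGACGTCGC lay 47 to 39 bases before it, and in Psmb6 TGACGGAGC lay 9 to 1 bases before it. No searched motif matched in the 250 bases of Psmb9. Promoters were found for 39 of the 46 genes. On both strands, GAS matched in 2 of these 39 (5.13%), Psmb8 and Psmg1, and in 7.02% of 32851 promoters. The antioxidant core matched in 5 (12.8%) against 10.2%. GAAA, any 2 bases, GAAA, the core of the interferon-stimulated response element, matched in 3 (7.69%), Psmd4, Psmd9 and Psmb3, against 2.98%. The 39 were counted by gene, with a match in any promoter of the gene, and the 32851 by promoter, so the shares are unlike measures. The motifs overlapped in no printed window, and a match is a description of the letters alone.

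The tissue labels held: marker means were 11.92 to 12.57 for hepatocytes in liver (5.77 to 8.83 elsewhere), 10.37 to 12.34 for muscle fibres in muscle (6.47 to 7.80 elsewhere) and 10.54 to 11.16 for adipocytes in fat (5.85 to 8.42 elsewhere). Some arrays stood apart. In muscle, all 4 arrays of B6 mice on the high-fat diet and low-fat replicate 9 of 129S6 had an SD over all probe sets of 1.57 to 1.70, below the 1.80 to 1.88 of the other 10 muscle arrays. In liver the 4 B6 low-fat arrays had an SD of 1.91 to 1.98 and the other 12 had 1.81 to 1.90; these 4 also formed a run of array numbers of their own, so run and group cannot be told apart there. The Gapdh 3' minus 5' signal, a measure of RNA integrity, was 0.82 to 1.69 in those 4 and 0.22 to 0.35 in B6 livers on the high-fat diet. In fat it was 5.81 to 6.03 on 3 high-fat arrays (replicate 7 of B6 and 2 of 129S6, replicates 12 and 13) and at most 2.36 on the others. Muscle replicate 9 had a mean of 5.22 for Gas5 and Snhg6, transcripts higher in B6 liver and fat on both diets (5.11 to 5.55 in other 129S6 muscles and 6.33 to 9.06 in B6). For Gdpd3, higher in 129S6 liver and fat, it read 7.60, between the other 129S6 muscles (9.02 to 9.59) and those of B6 (6.14 to 6.61). Its 5 skeletal muscle markers had a mean of 10.37 against 11.27 to 12.34 elsewhere in muscle.

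Between tissues, the inducible subunits were lowest in muscle. Psmb8 averaged 6.06 in 15 muscle arrays, 7.26 in 16 liver arrays and 7.73 in 14 fat arrays, with group means from 5.45 to 6.49 in muscle, 6.79 to 7.63 in liver and 7.45 to 8.32 in fat. Liver exceeded muscle by 1.20 ± 0.15 for Psmb8 (adjusted p = 1.34e-08), by 1.13 ± 0.12 for Psmb9 (adjusted p = 3.18e-10) and by 0.45 ± 0.13 for Psmb10 (adjusted p = 0.0019). Psme1, which forms the activator ring with Psme2, was 1.34 ± 0.16 higher in liver (adjusted p = 1.39e-09). Fat also exceeded muscle, by 1.67 for Psmb8, 1.40 for Psme1, 1.00 for Psmb9 and 0.71 for Psmb10, with adjusted p = 1.64e-11, 1.32e-09, 1.32e-08 and 1.25e-05. With the B6 low-fat groups alone, Psmb8 and Psmb9 kept these calls, while Psmb10 gave 0.54 for liver minus muscle (adjusted p = 0.114) and 0.65 for fat minus muscle (adjusted p = 0.0555), and Psme1 gave 0.43 for fat minus muscle (adjusted p = 0.332). The muscle mean of Psme1 includes the 5 arrays that stood apart, at 5.47 to 6.09 where the other 10 read 7.66 to 8.14. Fat and liver were closer. Psmb8 was 0.47 ± 0.16 higher in fat (adjusted p = 0.0105), while Psmb9 differed by -0.13 ± 0.13, Psmb10 by 0.25 ± 0.13 and Psme1 by 0.06 ± 0.16, none of them called. The order muscle, liver, fat was thus separated at each step for Psmb8 alone among these 4, and with the B6 low-fat groups alone the step from liver to fat turned to -0.12. In bulk RNA, fewer cells of a type and less RNA per cell cannot be told apart. The leukocyte markers were higher in fat than in liver for 9 of 9 (median 1.30), and between liver and muscle 1 was higher and 1 lower of 9 (median -0.05). Fat exceeded muscle for 8 of the 9 (median 1.61). Of 5 B and T lymphocyte markers, 0 were called higher and 5 lower in fat than in muscle (median -0.23). In fat minus liver 0 were higher and 2 lower (median -0.08), and in liver minus muscle 0 and 4 (median -0.24). Over all genes, 71.5% were called in fat minus muscle, 57.7% in fat minus liver and 68% in liver minus muscle. The part of either list's cells in the differences was not tested.

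The constitutive genes split between the tissues. Liver minus muscle, 19 of the 46 genes were called higher and 14 lower, beside 68% of all genes called, 24.6% higher and 43.4% lower. All 3 inducible subunits, 8 of 14 core genes and 4 of 17 cap genes were higher; 2 core and 8 cap genes were lower. The median difference was 0.40 for the core and -0.12 for the cap, beside -0.11 over all genes. Outside the inducible group and Psme1, the largest excesses of liver were those of the alpha subunits Psma4 (0.82) and Psma7 (0.76) and of the alpha ring chaperone Psmg1 (0.76). Muscle had more Psme4, the activator PA200 (difference -0.88), Psmd12 (-0.76), Psma3 (-0.73), Psmd6 (-0.60) and Psmd1 (-0.54); the Psmd genes of these are cap subunits without ATPase activity. Fat minus muscle gave 17 higher and 15 lower, beside 71.5% of all genes called, 30.4% higher and 41.1% lower, and the 5 largest excesses of fat were those of Psmb8 (1.67), Psme1 (1.40), Psmb9 (1.00), Psma2 (0.79) and Psmb10 (0.71). Psma2 was at -0.26 with the B6 low-fat groups alone. The largest deficits of fat were those of Psme4 (-1.10), Psmd11 (-1.07), Psma3 (-0.94), the cap chaperone Psmd9 (-0.61) and Psmd6 (-0.61).

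Fat minus liver gave 5 higher and 5 lower of 46, beside 57.7% of all genes called, 29.1% higher and 28.7% lower. The higher ones were Psmd14 (0.52, adjusted p = 0.00343), the cap's deubiquitinase, Psmb8, Psma2 (0.43), Psme3ip1 (0.27) and the cap chaperone Psmd10 (0.26). With the B6 low-fat groups alone all 5 were below 0: Psmd14 was at -0.26, Psmb8 at -0.12, Psma2 at -0.10, Psme3ip1 at -0.22 and Psmd10 at -0.05, none of them called. The lower ones were Psmd11 (-0.98), the ATPase Psmc1 (-0.61), Psmd9 (-0.54), Psmb5 (-0.45) and Psmg1 (-0.38). Tissue and array run cannot be told apart, and muscle averages include the 5 arrays that stood apart. With the B6 low-fat groups alone, the counts were 8 for liver minus muscle (5 higher, 3 lower), 17 for fat minus liver (1 higher, 16 lower) and 17 for fat minus muscle (2 higher, 15 lower), beside 36.5%, 39.4% and 33.8% of all genes called. In fat minus liver Psme1 then turned to -0.90 (adjusted p = 0.0164) and Psmb5 was no longer called (-0.17, adjusted p = 0.331). Psmb5 was read between tissues by a probe set other than the one used within liver and within fat. The latter read 8.67 to 9.37 in B6 low-fat livers and 7.34 to 7.80 in B6 low-fat fat, so the Psmb5 result depends on the probe set.

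**Figure D1:**
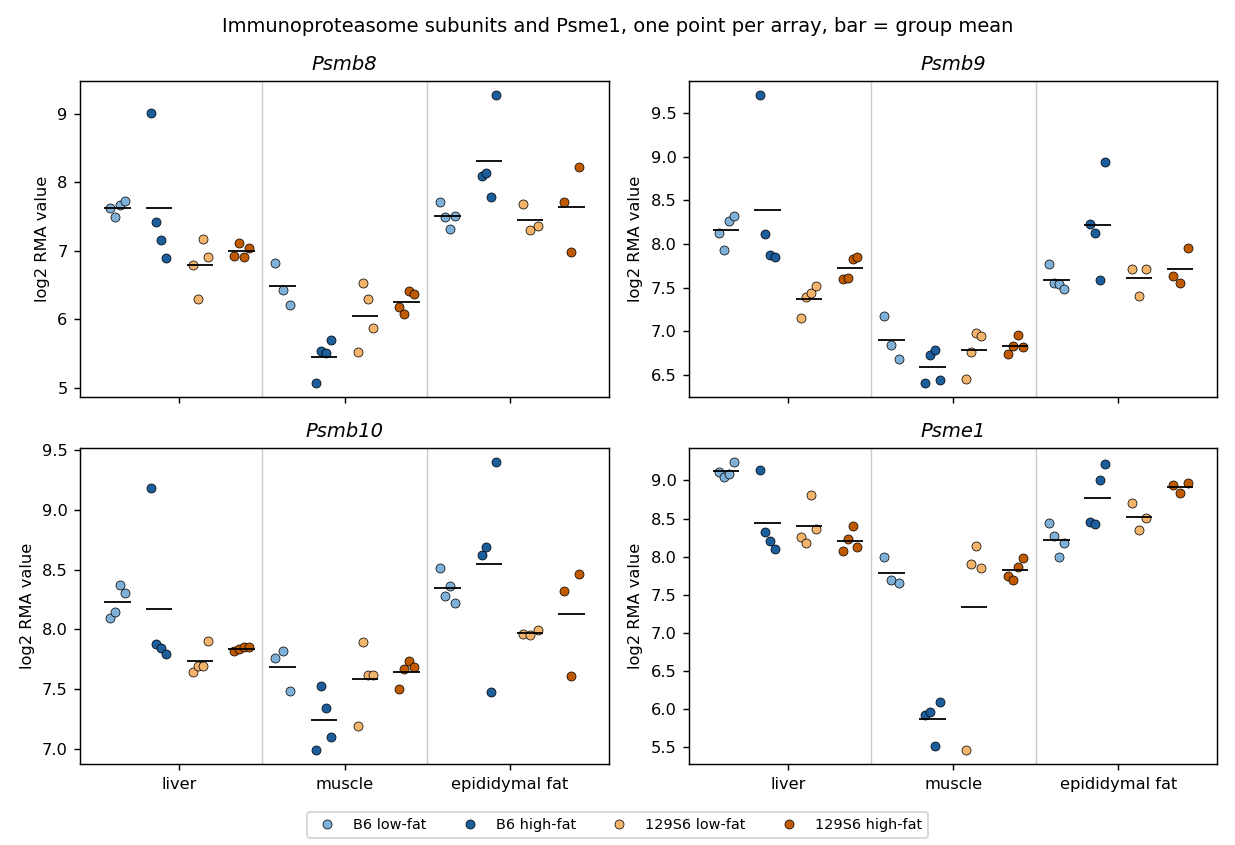
Log2 RMA values of Psmb8, Psmb9, Psmb10 and Psme1 in every array (points, coloured by strain and diet) with group means (bars), for liver, muscle and epididymal fat. One B6 high-fat liver array reads 9.02 for Psmb8 where the other 3 read 6.90 to 7.42, and 5 muscle arrays read 5.47 to 6.09 for Psme1 where the other 10 read 7.66 to 8.14.

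In the main fit the high-fat diet went with lower levels of constitutive core genes and of Psme1 in B6 liver, while the inducible subunits gave no call. Of the 46 genes, 17 fell and 1 rose, beside 18.2% of all genes called, 12% lower and 6.21% higher. The core had 8 of 14 genes lower and none higher, with a median difference of -0.47, and the cap 3 of 17 lower with a median of -0.21, beside 0.02 over all genes. Psmb6, the active subunit that cuts after acidic residues, was 9.48, 9.31, 9.46 and 9.48 on the low-fat arrays and 8.64, 8.63, 8.60 and 8.72 on the high-fat arrays. Every high-fat array lay below every low-fat array, a difference of -0.79 ± 0.09 (adjusted p = 4.55e-05). Psmb1, a beta subunit without an active site, went from 9.53, 9.40, 9.32 and 9.63 to 8.75, 8.78, 8.57 and 8.76. The groups did not overlap, and the difference was -0.76 ± 0.10 (adjusted p = 0.000111). A second bright probe set of Psmb1 differed by 0.15 ± 0.09 (adjusted p = 0.269), so the fall rests on 1 of 2 bright probe sets. Psmb3, another structural beta subunit, read 10.14 to 10.18 on the low-fat and 9.57 to 9.89 on the high-fat arrays (-0.48, adjusted p = 0.00702).

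Other constitutive genes fell by smaller steps. Among alpha subunits, Psma4 differed by -0.67 (adjusted p = 0.0041), Psma7 by -0.51 (adjusted p = 0.0194) and Psma5 by -0.37 (adjusted p = 0.0389); among beta subunits, Psmb4 differed by -0.45 (adjusted p = 0.0125) and Psmb2 by -0.40 (adjusted p = 0.0319). Psmb4 had 2 dimmer probe sets at -0.06 and -0.03. In the cap, the ubiquitin receptor Psmd4 fell from 9.43 ± 0.14 to 8.89 ± 0.14 (SD, n = 4 and 4, adjusted p = 0.00655), Psmd13 by 0.47 (adjusted p = 0.0199) and the ATPase Psmc3 by 0.39 (adjusted p = 0.049). Among the chaperones, Psmg2, which pairs with Psmg1 to build the alpha ring, went from 5.49 ± 0.30 to 4.75 ± 0.10 (adjusted p = 0.00236), and Psmg1 (-0.47) and the cap chaperone Psmd10 (-0.43) also fell. Psmg3, a chaperone of the same step, was the 1 gene that rose, by 0.34 (adjusted p = 0.034). The nuclear activator Psme3 differed by -0.53 (adjusted p = 0.00608), and Psme3ip1, which encodes no subunit, by -0.38 (adjusted p = 0.00878).

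The inducible subunits differed little in mean and widely in spread. Psmb8, the inducible partner of Psmb5, read 7.63, 7.49, 7.67 and 7.73 on the low-fat arrays of B6 livers and 9.02, 7.42, 7.16 and 6.90 on the high-fat arrays. The high value belongs to replicate 13, the other 3 lie below all low-fat arrays, and the difference of the means was -0.01 ± 0.32 (adjusted p = 0.994). Psmb9, the partner of Psmb6, read 8.13, 7.93, 8.26 and 8.32 against 9.70, 8.11, 7.88 and 7.85 (0.23 ± 0.28, adjusted p = 0.607). Psmb10, the partner of Psmb7, read 8.09, 8.14, 8.37 and 8.30 against 9.18, 7.88, 7.84 and 7.79 (-0.06 ± 0.22, adjusted p = 0.882). Replicate 13 was again the highest of its group for both. Psme1 read 9.11, 9.05, 9.08 and 9.24 against 9.14, 8.32, 8.20 and 8.10, a called difference of -0.68 ± 0.18 (adjusted p = 0.0167) although replicate 13 lay among the low-fat arrays. Without replicate 13 the differences were -0.47 for Psmb8 (adjusted p = 0.0666), -0.21 for Psmb9 (adjusted p = 0.239), -0.39 for Psmb10 (adjusted p = 0.00877) and -0.92 for Psme1 (adjusted p = 0.00038), so Psmb10 then passed. Psme1 lost its call without low-fat replicate 4 (-0.64, adjusted p = 0.0551), high-fat replicate 15 (-0.60, adjusted p = 0.057) or high-fat replicate 16 (-0.57, adjusted p = 0.0576).

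Replicate 13 was above the other 3 arrays of its group for 4 of 4 of the inducible subunits and Psme1, by 0.94 to 1.86 over their mean (median 1.55). For the constitutive core it was highest in 8 of 14 genes (median 0.18) and for the cap in 8 of 17 (median 0.11). It was highest for 14 of 15 measured genes of interferon signalling (median 0.59), among them the guanylate-binding protein Gbp2 at 8.76 against 5.54 to 5.71, the GTPase Igtp at 8.21 against 5.45 to 5.69, and the peptide transporter Tap1, of the antigen presentation list, at 8.73 against 6.82 to 7.01. All 9 leukocyte markers were highest there too, with a mean of 8.21 against 6.85 to 7.05, and lysozyme Lyz2 was 9.82 against 6.78 to 7.18. Of 5 lymphocyte markers 3 were highest (median 0.14), and of 5 skeletal muscle markers 3 (median 0.36), with the actin Acta1 at 9.57 against 5.28 to 6.91. The part of these cells or of RNA from them in the inducible subunits' values was not tested. How often replicate 13 was highest over all genes was not counted.

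The count in B6 liver depended on a few arrays and on the spread of the arrays. It was 11 without low-fat replicate 4 (10.2% of all genes called), 10 without high-fat replicate 16 (13.6%) and 18, all lower, without replicate 13 (13.9%). With the SD of each array as a covariate 5 members were called, 3 higher and 2 lower, beside 12.2% of all genes. Psmb6 (-0.63, adjusted p = 0.00416) and Psmb1 (-0.55, adjusted p = 0.00809) were among them. Psme1 (-0.28, adjusted p = 0.429), Psmg2 (-0.30), Psma4 (-0.21), Psmd4 (-0.33), Psme3 (-0.46), Psma7 (-0.15) and Psmg3 (0.03) lost their calls there. In a fit adjusted for 3' to 5' signal, Psme1 (-0.51, adjusted p = 0.0547), Psma7 (-0.35, adjusted p = 0.0652) and Psmg3 (0.27, adjusted p = 0.0964) missed the threshold.

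In the liver of 129S6 mice the same diet contrast gave no call. Of the 46 genes, 0 were called by limma and 0 had an unadjusted p under 0.05, beside 0.23% of all genes called and 527 with an unadjusted p under 0.05. Psmb6 was 8.91, 8.68, 8.80 and 8.89 on the low-fat and 8.62, 8.79, 9.07 and 8.74 on the high-fat arrays, and Psmb1 8.86, 8.82, 9.19 and 9.02 against 8.94, 9.02, 9.12 and 8.86. The groups overlapped for both. Psmb8 was 6.79, 6.29, 7.18 and 6.91 against 6.92, 7.11, 6.91 and 7.04 (0.20 ± 0.32, adjusted p = 0.93), Psmb9 differed by 0.35 ± 0.28 and Psmb10 by 0.11 ± 0.22. Psme1 was 8.26, 8.18, 8.81 and 8.36 against 8.08, 8.23, 8.40 and 8.13 (-0.19 ± 0.18, adjusted p = 0.868).

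The diet difference itself differed between the strains for 6 genes, all with the lower value in B6, beside 5.49% of all genes called and 4.63% lower. These were Psmb6 (-0.77, adjusted p = 0.00279), Psmb1 (-0.77, adjusted p = 0.00354), Psmb3 (-0.67, adjusted p = 0.0182), the activator Psme3 (-0.64, adjusted p = 0.0334), the chaperone Psmg2 (-0.75, adjusted p = 0.041) and the cap subunit Psmd13 (-0.67, adjusted p = 0.0438). Core subunits made up 3 of the 6, all of the beta ring. Psmb6 and Psmb1 kept their calls under every setting that could be fitted, Psmb1 with the probe set used here (its second bright one gave 0.32, adjusted p = 0.183). The run of array numbers could not be fitted as a block here, because the B6 low-fat arrays form a run of their own. The other 4 lost their calls under quantile normalization (adjusted p = 0.207 for Psmb3, 0.0534 for Psme3, 0.0628 for Psmg2 and 0.0622 for Psmd13) and with the array SD as a covariate (adjusted p = 0.0719, 0.0844, 0.27 and 0.118). Psmb8 (-0.21 ± 0.45), Psmb9 (-0.12 ± 0.40), Psmb10 (-0.16 ± 0.31) and Psme1 (-0.49 ± 0.26) were not called; without B6 high-fat replicate 13, Psmb10 (-0.50, adjusted p = 0.0288) and Psme1 (-0.72, adjusted p = 0.0308) were. The count was 3 without any 1 of B6 low-fat replicates 2 and 4, 129S6 high-fat replicates 8 and 9 or B6 high-fat replicate 15, beside 3.19% to 3.88% of all genes called, and 11 without 129S6 low-fat replicate 11, beside 10.3%.

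Between the strains on the low-fat diet, B6 livers had the higher value for every member called. These were 14 of 46, beside 13.8% of all genes called and 10% higher: 6 of 14 core genes (median 0.43), 4 of 17 cap genes (median 0.23), Psme1, Psme3, Psmd10 and Psme3ip1, where the median of all genes was -0.02. The beta ring held 5 of the core genes: Psmb5 (1.04), Psmb6 (0.61), Psmb1 (0.50), Psmb7 (0.48) and Psmb3 (0.47), with adjusted p = 0.00335, 0.00034, 0.00276, 0.0349 and 0.00959. Psmb5, the active subunit that cuts after hydrophobic residues, was 8.89, 9.01, 8.67 and 9.37 in B6 and 7.78, 7.31, 8.22 and 8.47 in 129S6, without overlap. Its other probe set differed by -0.10 (adjusted p = 0.664), so the excess of Psmb5 rests on 1 probe set, and the same holds for Psmb1, whose second bright probe set differed by -0.24 (adjusted p = 0.112). In the cap, Psmd4 (0.67), Psmd13 (0.64), Psmc1 (0.45) and Psmd8 (0.41) were higher, with adjusted p = 0.00169, 0.00364, 0.0326 and 0.00209. The alpha subunit Psma4 was 0.54 higher (adjusted p = 0.0178). This contrast shares the B6 low-fat arrays with the diet contrast in B6, so the gene sets of the 2 contrasts are not independent.

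Psmb8, Psmb9 and Psmb10 did not pass on the low-fat diet. Every B6 array lay above every 129S6 array for each of the 3, but the share of all genes without overlap was not counted. The values in 129S6 were 6.29 to 7.18 for Psmb8, 7.15 to 7.52 for Psmb9 and 7.64 to 7.90 for Psmb10, and in B6 7.49 to 7.73, 7.93 to 8.32 and 8.09 to 8.37. The differences were 0.84 ± 0.32 (adjusted p = 0.0884), 0.78 ± 0.28 (adjusted p = 0.0768) and 0.50 ± 0.22 (adjusted p = 0.14). A fit of the 2 low-fat groups alone gave adjusted p = 0.0181, 0.00504 and 0.0199, and the fit without B6 high-fat replicate 13, in whose group Psmb8 had an SD of 0.96, gave 0.00172, 0.000191 and 0.000919. With the SD of the arrays as a covariate the differences were 0.28, 0.42 and 0.20 (adjusted p = 0.741, 0.574 and 0.744). Psme1 passed at 0.72 ± 0.18 (adjusted p = 0.0158), and missed the threshold without B6 low-fat replicate 4 (adjusted p = 0.0567) or 129S6 low-fat replicate 6 (adjusted p = 0.0503). With the SD of the arrays as a covariate Psme1 was not called either (0.32, adjusted p = 0.437). The count of 14 was 8 without B6 low-fat replicate 4 (6.79% of all genes called) and 9 without 129S6 low-fat replicate 5 or 6 (9.48% and 9.3%). Leaving out 129S6 low-fat replicate 11 (3' minus 5' signal of Gapdh 3.26) gave 27 (23.4% of all genes called), and the count was 2 with the SD as a covariate (5.43%).

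On the high-fat diet the strains gave 0 calls of 46 in liver, beside 5.16% of all genes called. The groups compared lay in different runs of array numbers, so strain and run cannot be told apart between them alone. Psmb8 differed by 0.63 ± 0.32 (adjusted p = 0.291), Psmb9 by 0.66 ± 0.28 (adjusted p = 0.213), Psmb10 by 0.33 ± 0.22 (adjusted p = 0.433) and Psme1 by 0.23 ± 0.18 (adjusted p = 0.531). Without replicate 13 the differences were smaller, at 0.17, 0.23, -0.00 and -0.00. The count was 1 without 129S6 low-fat replicate 6 and 3 without 129S6 low-fat replicate 11, beside 6.47% and 9.24% of all genes called.

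Genes around the proteasome were read from lists of antigen presentation (10 of 11 measured), interferon signalling (15 of 19) and ubiquitin or proteasome partners (14 of 25). In B6 liver the partners Sem1, a small cap subunit named outside the Psm pattern, Pomp, the maturation factor of the 20S core, and the ubiquitin ligase Stub1 fell on the high-fat diet, by 0.83, 0.58 and 0.48, and the transcription factor Nfe2l2 rose by 0.58. That is 3 lower and 1 higher of 14, beside 18.2% of all genes called. Between strains on the low-fat diet Sem1 (0.57), Pomp (0.54), Stub1 (0.52) and the ubiquitin shuttle Rad23b (0.50) were higher in B6, and none was lower, beside 13.8% of all genes called. The diet difference between the strains was called for Sem1 (-0.77), Stub1 (-0.65) and Pomp (-0.63), beside 5.49% of all genes. In the antigen presentation list the chaperone Canx alone was called for diet in B6 (0.41), and the class I heavy chains H2-D1 (0.44) and H2-K1 (0.43) for strain on the low-fat diet. In the interferon list Ifit1 (0.40) and Socs1 (0.41) rose with the diet in B6, B6 exceeded 129S6 for Irf7 (0.71) and Irf9 (0.43) under the low-fat diet and for Irf7 (0.84), Ifit1 (0.77) and Irf9 (0.45) under the high-fat diet. Nothing in these 3 lists was called for diet in 129S6 liver. Of the 9 leukocyte markers, Cd14 (0.66) and Coro1a (0.52) were called higher for diet in B6 and none for strain on the low-fat diet. Of the 5 skeletal muscle markers, Pvalb (0.53), Tnnc2 (0.50) and Ckm (0.30) were called higher for diet in B6 (median 0.50 over the 5), and Tnnc2 (-0.44) was called lower for strain on the low-fat diet (median -0.39). Their part in the members' differences was not tested.

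**Figure D2:**
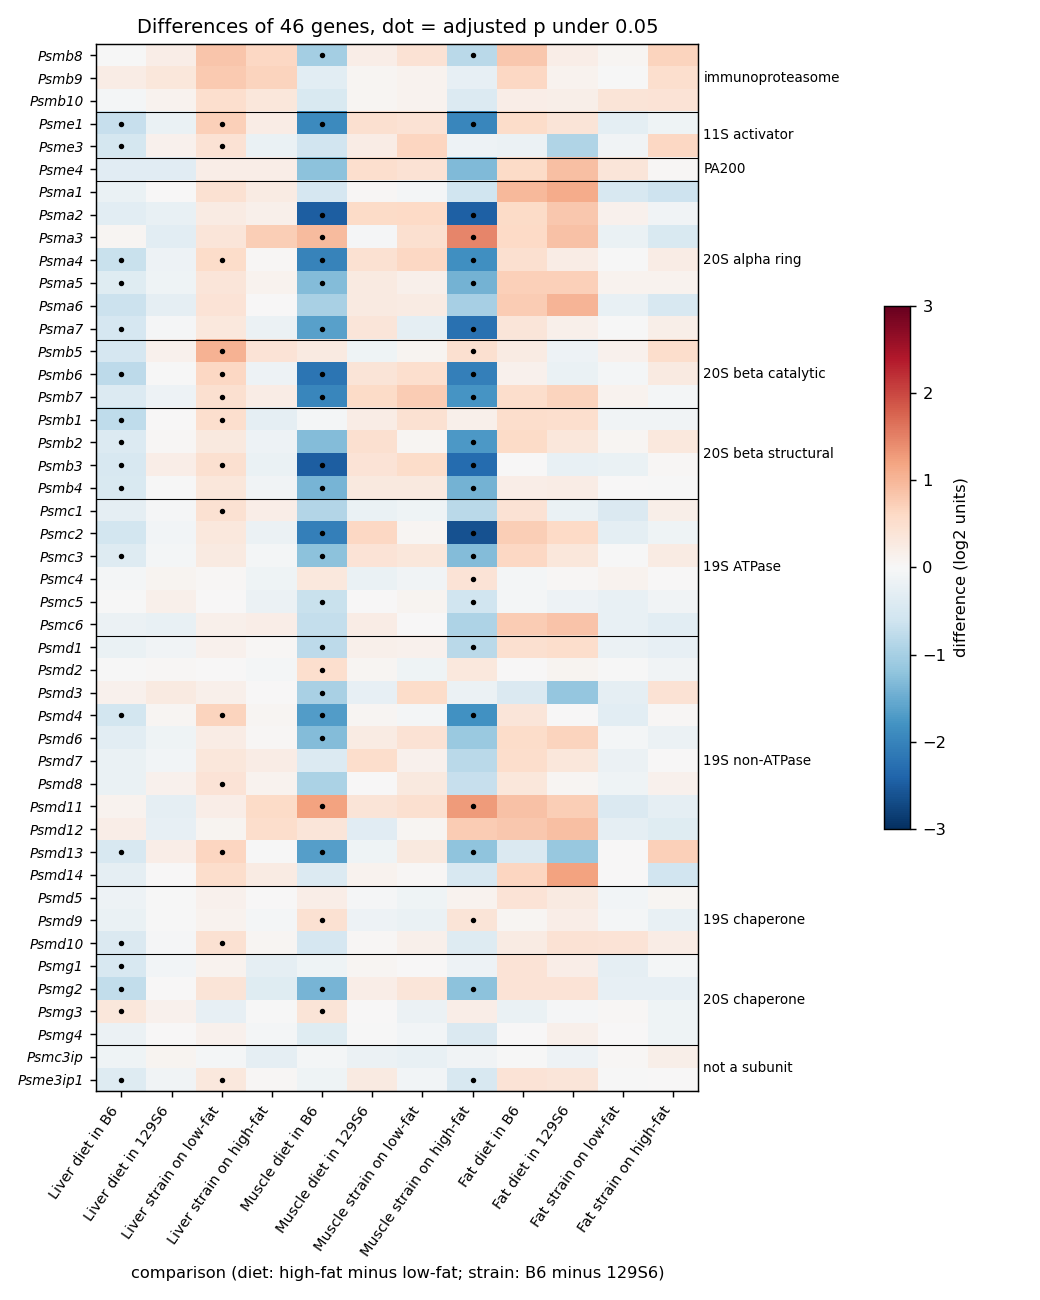
Differences in log2 units (colour) of the 46 genes (rows, by role) for the diet and strain comparisons within each tissue (columns), with a dot where the limma adjusted p is under 0.05. Dots fill the B6 diet and high-fat strain columns of muscle (24 genes each) and, in liver, the B6 diet and low-fat strain columns (18 and 14), while the fat diet and strain columns have none.

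In muscle of B6 mice the high-fat arrays had lower values for many core and cap genes, and the same 4 arrays are those that stood apart in spread, so group and array spread cannot be told apart within B6. Of the 46 genes, 19 fell and 5 rose, beside 26.8% of all genes called, 12% lower and 14.8% higher. The core had 8 of 14 lower and 1 higher (median -1.36) and the cap 8 of 17 lower and 2 higher (median -0.79), where the median of all genes was 0.16. Psmb6 was 9.65, 9.36 and 9.45 on the low-fat arrays and 7.29, 7.44, 7.16 and 7.31 on the high-fat arrays (-2.19, adjusted p = 0.00799). Psma2, an alpha subunit, was 9.81, 9.53 and 8.97 against 7.32, 6.70, 6.42 and 7.44 (-2.47, adjusted p = 0.00872). Psmb3 was 10.20, 10.00 and 9.72 against 7.87, 7.13, 6.93 and 8.07 (-2.47, adjusted p = 0.014). The groups were more than 1 log2 unit apart for each of these.

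Next in size were the ATPase Psmc2 (-2.04, adjusted p = 0.043), Psma4 (-2.00, adjusted p = 0.0384), the active subunit Psmb7 (-1.96, adjusted p = 0.0189) and the ubiquitin receptor Psmd4 (-1.68, adjusted p = 0.0148). Other core and cap genes went the opposite way. The alpha subunit Psma3 was 10.40, 10.30 and 10.76 on the low-fat and 11.69, 11.47, 11.21 and 11.41 on the high-fat arrays (0.96, adjusted p = 0.00916). The cap subunit Psmd11 was 9.74, 9.88 and 10.10 against 11.38, 10.88, 10.68 and 11.48 (1.20, adjusted p = 0.0128). The cap scaffold Psmd2 (0.51, adjusted p = 0.0163), the chaperones Psmd9 (0.45, adjusted p = 0.042) and Psmg3 (0.39, adjusted p = 0.0368) completed the genes that rose. Subunits that sit in 1 ring in fixed proportion therefore had opposite differences on these arrays.

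Probe sets of 1 gene did so too. A second probe set of Psmd11 differed by -0.80 (adjusted p = 0.0116) where the one used gave 1.20, and the third by 0.35. For Psmb5 the probe set used in muscle differed by 0.28 (adjusted p = 0.171) and the other by -5.36 (adjusted p = 0.00473): its values were 8.38 to 9.63 on the low-fat and 3.17 to 4.23 on the high-fat arrays. For Psmb1 the probe set used gave -0.07, and the probe set used in liver gave -2.39 (adjusted p = 0.0186). Psme1 had a dim second probe set (mean 3.83) that differed by 0.82 (adjusted p = 0.00992) where the bright one fell. These differences within a gene are as large as those between genes, and their cause was not tested.

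**Figure D3:**
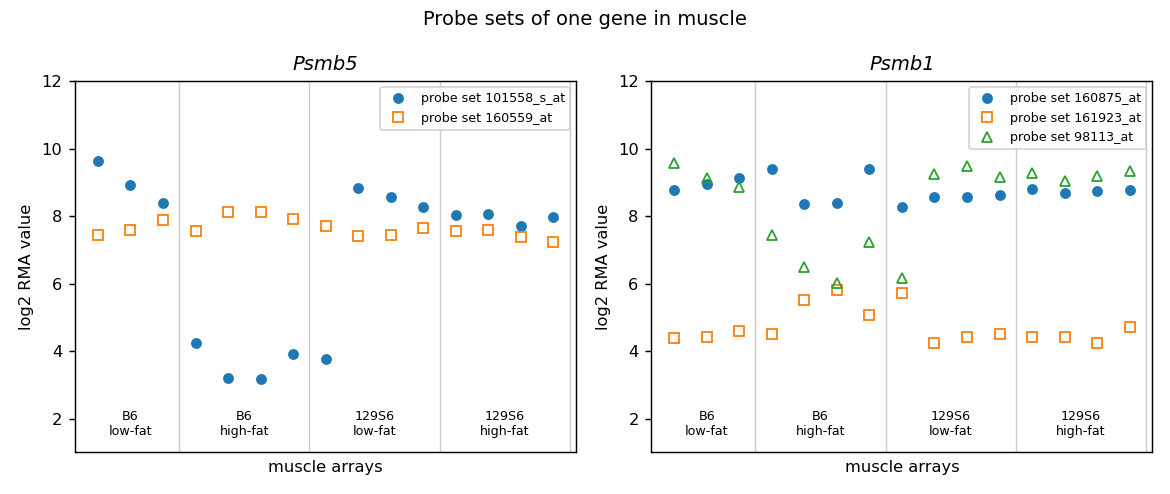
Log2 RMA values (y) of each probe set of Psmb5 and Psmb1 (markers) on the 15 muscle arrays, grouped by strain and diet. For Psmb5, 1 probe set reads 3.17 to 4.23 on 5 arrays where the other stays between 7.57 and 8.12.

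The inducible subunits had smaller differences than the core's median of -1.36 in B6 muscle, and 1 of 3 was called. Psmb8 was 6.82, 6.43 and 6.21 on the low-fat and 5.07, 5.54, 5.51 and 5.70 on the high-fat arrays (-1.03 ± 0.22, adjusted p = 0.0116). Psmb9 was 7.18, 6.85 and 6.68 against 6.41, 6.73, 6.79 and 6.44 (-0.31 ± 0.16, adjusted p = 0.137), and its groups overlapped. Psmb10 was 7.76, 7.82 and 7.48 against 6.99, 7.52, 7.34 and 7.10 (-0.45 ± 0.17, adjusted p = 0.0569), and passed without 129S6 low-fat replicate 9 (adjusted p = 0.0198) or 10 (adjusted p = 0.0487). Psme1 was 8.00, 7.70 and 7.66 against 5.92, 5.96, 5.52 and 6.09 (-1.91 ± 0.46, adjusted p = 0.0152). Psmb8 and Psme1 lost their calls without B6 low-fat replicate 13 (adjusted p = 0.0682 and 0.0755). Leukocyte markers had means of 6.69 to 7.44 on the low-fat and 6.60 to 6.85 on the high-fat arrays, and 1 of 9, Lyz2, was called (-2.26, adjusted p = 0.027). Of 5 skeletal muscle markers Mylpf was called lower (-0.96, median -0.56 over the 5), of 4 adipocyte markers Adipoq (-0.78) and Cidec (-1.34) were called lower (median -0.45), and of 4 endothelial markers Cdh5 was called higher (1.24). The part of these markers' cells in the members' differences was not tested.

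With the SD of each array as a covariate, 1 member was called for diet in B6 muscle, and it was higher, beside 0.739% of all genes; Psmb6 was then at -0.77 (adjusted p = 0.172), Psme1 at -0.32 (adjusted p = 0.5), Psmb8 at -0.53 (adjusted p = 0.359), and Psma4 and Psmc2 turned to 0.13 and 0.37. The count of 24 was 1 without B6 low-fat replicate 13, 12 without B6 low-fat replicate 14 and 13 without B6 high-fat replicate 7, beside 2.28%, 8.36% and 12.5% of all genes called.

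A single 129S6 array carried the same profile. Replicate 9 on the low-fat diet read 7.23 for Psmb6 where the other 3 of its group read 9.29 to 9.75, 7.14 for Psmb3 where they read 10.07 to 10.22, and 5.47 for Psme1 where they read 7.85 to 8.14. It lay below all 3 for 36 of the 46 genes and above them for 9. For the core the counts were 12 and 2, and such counts over all genes were not made. The median of the 14 core genes was 7.10 to 7.84 on the 5 arrays that stood apart and 9.00 to 9.43 on the other 10, and that of the 17 cap genes 7.01 to 7.51 against 8.03 to 9.03. Psmd11 did not follow: it was 8.55 on replicate 9, below the 9.69 to 9.78 of its group, whereas the B6 high-fat arrays lay above the B6 low-fat ones. This gene was chosen for mention after its values were seen. Gapdh 3' minus 5' signals were 1.12 to 3.36 on the 5 arrays and 0.29 to 4.43 on the 10, and so overlapped.

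**Figure D4:**
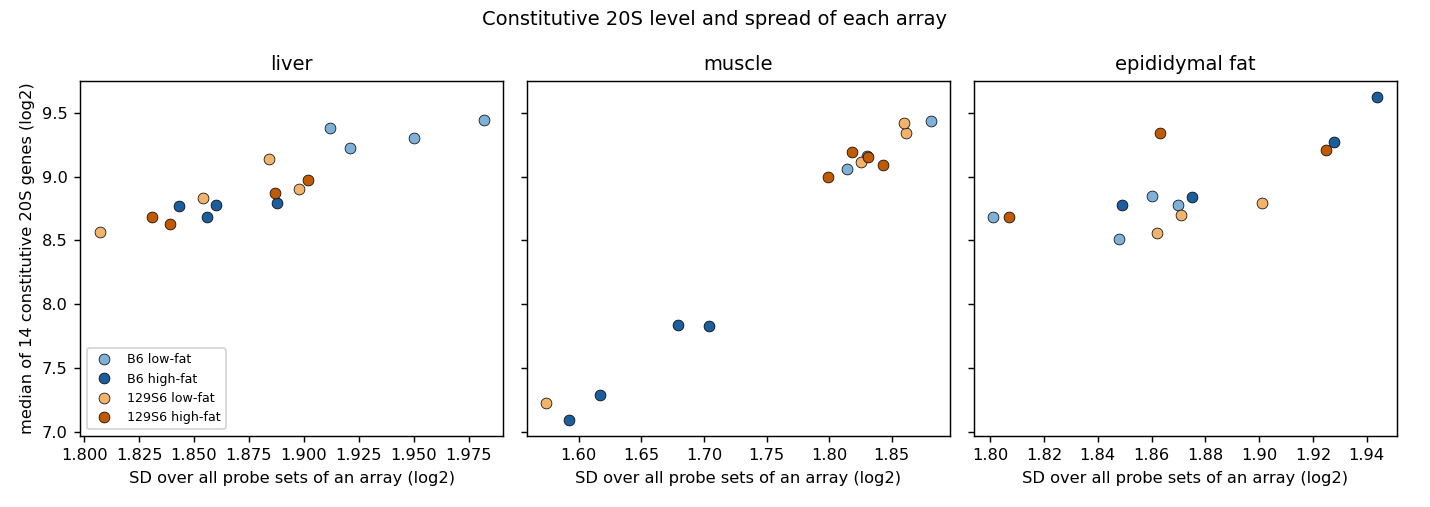
Median log2 value of the 14 constitutive 20S genes (y) against the SD over all probe sets of each array (x), 1 point per array, coloured by strain and diet, in liver, muscle and epididymal fat. In muscle 5 arrays sit at an SD of 1.57 to 1.70 and a core median of 7.10 to 7.84, apart from 10 at 1.80 to 1.88 and 9.00 to 9.43; in liver the 4 B6 low-fat arrays lie at the highest SD and core median, 9.22 to 9.44.

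In 129S6 muscle the diet contrast called 0 of 46 genes and 0 genes in all (0%), with 0 members and 151 genes at an unadjusted p under 0.05. Psmb8 differed by 0.20 ± 0.21, Psmb9 by 0.05 ± 0.14, Psmb10 by 0.07 ± 0.15 and Psme1 by 0.48 ± 0.43, each with adjusted p = 0.992. Without replicate 9 these became 0.03, -0.06, -0.06 and -0.14 (adjusted p = 0.999 each), and Psmb6 -0.20.

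The strains on the low-fat diet gave 0 calls of 46 in muscle, with Psma3 alone at an unadjusted p under 0.05, beside 0.279% of all genes called. Psmb8 differed by 0.43 ± 0.22 (adjusted p = 0.808), Psmb9 by 0.11 ± 0.16, Psmb10 by 0.11 ± 0.17 and Psme1 by 0.44 ± 0.46. On the high-fat diet 19 were lower and 5 higher in B6, beside 29.3% of all genes called, 13.7% lower and 15.5% higher, with a median of 0.14 over all genes. The largest deficits of B6 were those of Psmc2 (-2.62, adjusted p = 0.0113), Psma2 (-2.44, adjusted p = 0.00421), Psmb3 (-2.32, adjusted p = 0.00927), Psma7 (-2.24, adjusted p = 0.00431) and Psmb6 (-2.05, adjusted p = 0.00469). Next were Psme1 (-1.95, adjusted p = 0.00759), Psma4 (-1.84, adjusted p = 0.035), Psmd4 (-1.81, adjusted p = 0.00608), Psmb7 (-1.78, adjusted p = 0.0154) and Psmb2 (-1.72, adjusted p = 0.0186). Among the inducible subunits, Psmb8 differed by -0.80 (adjusted p = 0.0147). B6 was higher for Psma3 (1.47, adjusted p = 0.000549), Psmd11 (1.28, adjusted p = 0.00493), Psmb5 (0.49, adjusted p = 0.0254, other probe set -4.33), the ATPase Psmc4 (0.42, adjusted p = 0.0334) and Psmd9 (0.39, adjusted p = 0.0469). The contrast shares the 4 B6 high-fat arrays with the diet contrast in B6, and with the SD as a covariate 3 members were called, 2 higher and 1 lower, beside 1.61% of all genes.

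The diet difference between strains was called in muscle for 4 members, all lower in B6, beside 3.19% of all genes called and 2.53% lower: Psma2 (-3.04, adjusted p = 0.0373), Psmb6 (-2.56, adjusted p = 0.0397), Psmb8 (-1.24, adjusted p = 0.0451) and Psmb4 (-1.70, adjusted p = 0.0474). Psme1 (-2.39, adjusted p = 0.0517) did not pass. Without replicate 9 the count was 16, beside 9.82% of all genes, and Psme1 was called (-1.77, adjusted p = 0.000125), as was Psmb6 (-1.98, adjusted p = 2.38e-05) and Psmb8 (-1.06, adjusted p = 0.0236). Leaving out 129S6 low-fat replicate 10 or 11 gave 12 or 11 (7.83% and 9.21% of all genes called), leaving out B6 high-fat replicate 5 or 8 gave 13 or 2 (10.4% and 2.08%), and the count was 0 without any 1 of the 3 B6 low-fat arrays, B6 high-fat replicates 6 and 7 or the 4 129S6 high-fat arrays, beside 0.0242% to 0.667% of all genes. In the partner list, Stub1 (-2.05), Nfe2l1 (-1.59), the transcription factor of proteasome genes, Sem1 (-1.40) and Pomp (-0.65) fell with the diet in B6 muscle. That is 4 lower and 0 higher of 14, beside 26.8% of all genes called, 12% lower and 14.8% higher. Tap1 (0.70) and Canx (0.49) rose, 2 of 10 genes of antigen presentation, and 2 of 15 interferon genes were called higher. The B6 high-fat arrays of this contrast are those that stood apart in spread.

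In epididymal fat no member was called for diet or strain. In B6 fat 0 of 46 genes were called, beside 0.279% of all genes, and 21 members had an unadjusted p under 0.05 (1255 of all genes). The median differences were 0.63 for the 3 inducible subunits, 0.52 for the core and 0.47 for the cap, beside -0.03 over all genes. Psmb8 was 7.72, 7.49, 7.32 and 7.51 on the low-fat arrays and 8.09, 8.13, 7.78 and 9.27 on the high-fat arrays. All high-fat arrays were above all low-fat ones, the highest being replicate 8, and the difference was 0.81 ± 0.30 (adjusted p = 0.272). Psmb9 was 7.77, 7.55, 7.54 and 7.49 against 8.23, 8.13, 7.59 and 8.94 (0.63 ± 0.22, adjusted p = 0.245), with overlap. Psmb10 was 8.51, 8.28, 8.36 and 8.22 against 8.62, 8.69, 7.47 and 9.40 (0.20 ± 0.31, adjusted p = 0.73), where the lowest array, replicate 7, is one with a high Gapdh signal ratio. Psme1 was 8.44, 8.27, 7.99 and 8.18 against 8.46, 8.43, 9.00 and 9.21 (0.56 ± 0.17, adjusted p = 0.223).

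The members with the smallest p were Psmd11 (0.89, adjusted p = 0.154), Psma5 (0.71, adjusted p = 0.189) and Psma1 (0.98, adjusted p = 0.219). Psma1, an alpha subunit, went from 6.64 ± 0.21 to 7.61 ± 0.81 (SD, n = 4 and 4). Replicate 8 was the highest of its group for 4 of 4 of the inducible subunits and Psme1 (median 1.05 above the mean of the other 3), 3 of 14 core genes, 5 of 17 cap genes, 5 of 15 interferon genes and 3 of 9 leukocyte markers, whose mean was 9.34 against 8.52 to 9.23. Replicate 7, with its high Gapdh signal ratio, was the highest of the group for 11 of 14 core genes (median 0.71 above the mean of the other 3) and 10 of 17 cap genes (median 0.73). It was the lowest for 3 of 4 of the inducible subunits and Psme1 (median -0.78), and the part of the signal ratio was not tested. For neither replicate were such counts made over all genes. Without replicate 8 Psmb8 was at 0.49, Psmb9 at 0.39 and Psme1 at 0.41, each with adjusted p = 0.472, and Psmb10 at -0.08 (adjusted p = 0.897). Without the 3 arrays of high Gapdh signal ratio, 3 members were called higher, beside 2.21% of all genes, with Psmb9 among them (0.84, adjusted p = 0.0294), and Psmb8 was at 0.99 (adjusted p = 0.0562). The class I heavy chain H2-K1 was the 1 gene called in the antigen presentation list (0.68, adjusted p = 0.0242). The leukocyte markers had a median difference of 0.55 and their part in the members' values was not tested.

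In 129S6 fat the diet contrast also called 0 of 46, beside 0.751% of all genes. The core median was 0.42, the cap median 0.34 and the median of the inducible subunits 0.17, beside 0.01 over all genes. Psmb8 was 7.68, 7.30 and 7.36 on the low-fat and 7.72, 6.98 and 8.22 on the high-fat arrays (0.19 ± 0.35, adjusted p = 0.823). Psmb9 was 7.72, 7.41 and 7.71 against 7.63, 7.56 and 7.96 (0.10 ± 0.25), Psmb10 7.96, 7.95 and 7.99 against 8.32, 7.61 and 8.46 (0.17 ± 0.36), and Psme1 8.70, 8.35 and 8.51 against 8.94, 8.84 and 8.96 (0.39 ± 0.20, adjusted p = 0.39). Of these Psme1 alone had no overlap between the groups, and the share of all genes without overlap was not counted. The smallest p belonged to Psme3 (-0.90, adjusted p = 0.138), Psmd14 (1.21, adjusted p = 0.159) and the alpha subunit Psma6 (1.02, adjusted p = 0.167). Psmd14 was 6.98 to 7.04 on the low-fat arrays and 7.87 to 8.49 on the high-fat ones. Psme3 was 7.36 to 7.58 against 6.31 to 6.84. Without B6 high-fat replicate 7, 15 members were called, 13 higher and 2 lower, beside 11.7% of all genes. That array is outside this contrast and enters only through the shared estimate of the spread. The Gapdh signal ratio was 5.81 and 5.93 on high-fat replicates 12 and 13, 0.37 on replicate 14 and 0.07 to 0.24 on the low-fat arrays. Diet and signal ratio can thus be told apart only through replicate 14, which read 7.87 for Psmd14 and 6.31 for Psme3. The leukocyte markers had a median difference of 0.69.

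The strains gave 0 calls of 46 in fat on either diet, beside 1.08% of all genes on the low-fat and 0.436% on the high-fat diet. Of the members, 0 and 1 had an unadjusted p under 0.05. The B6 arrays shared a run of array numbers with 129S6 low-fat replicate 9, and the other 129S6 arrays formed another run. Strain and run thus cannot be told apart on the high-fat diet, and on the low-fat diet only through that replicate. On the low-fat diet Psmb8 differed by 0.06 ± 0.33, Psmb9 by -0.02 ± 0.24, Psmb10 by 0.38 ± 0.33 and Psme1 by -0.30 ± 0.19, and the smallest p was that of Psmc1 (-0.44, adjusted p = 0.648). On the high-fat diet Psmb8 differed by 0.67 ± 0.33 (adjusted p = 0.6), Psmb9 by 0.51 ± 0.24 (adjusted p = 0.586), Psmb10 by 0.41 ± 0.33 (adjusted p = 0.784) and Psme1 by -0.14 ± 0.19 (adjusted p = 0.869). The count there was 12, 3 higher and 9 lower, without B6 high-fat replicate 7, beside 10.9% of all genes, with Psmb9 (0.72, adjusted p = 0.0325) and Psmb10 (0.77, adjusted p = 0.0432) among them. The Gapdh signal ratio was 6.03 on that array and 0.03 to 2.36 on the other B6 high-fat arrays. In 129S6 it was 5.81, 5.93 and 0.37, so without replicate 7 strain and signal ratio are harder to tell apart. The diet difference between the strains gave 0 calls of 46 and of all genes (0%), with 1 member at an unadjusted p under 0.05; it was 0.61 ± 0.46 for Psmb8, 0.53 ± 0.34 for Psmb9, 0.04 ± 0.47 for Psmb10 and 0.16 ± 0.26 for Psme1.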

How the data were processed

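RNA of 45 pools was measured on 1-colour Affymetrix arrays. The authors deposited log2 values made with RMA, per the submitters' processing notes; RMA corrects background, equalises the arrays' distributions and summarises the probes of a probe set. Its version was not given in the sources used here. Array medians were 6.07 to 6.24 and values 2.26 to 14.26. Of 12488 probe sets, 66 were controls, 10833 had 1 gene symbol, 396 several and 1193 none; 10817 were matched to RefSeq gene names by Entrez ID. The number of arrays limits the precision.

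Each tissue was fitted with limma 3.58.1 in R 4.3.3 with 4 group means, eBayes and two-sided tests, over 8251 genes read by the probe set with the highest mean in that tissue. Tissue contrasts used all 45 arrays and the probe set brightest over them. Tables and figures were made with pandas 2.3.3 and matplotlib 3.10.9 in Python 3.11.15. On simulated data for diet in B6 liver (8251 genes, 200 changed), 95% of changes of 1 log2 unit and 61% of 0.5 were called. Of 170 calls, 14 were unchanged genes. The simulated noise was independent for each gene and array, without array runs, outlying arrays or differences in array SD. The real contrast has these, so the rates may not hold for it.

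Psmb8, Psmb9, Psmb10 and Psme1 are always named, with up to 8 other members each way with the largest called differences (5 for tissues) or, where none passed, the 3 with the smallest p; the text may name fewer, and other called genes beyond these. The members, lists and tests were chosen with earlier results of these data known. Alternatives were quantile normalization, a fit of only the 2 groups, the run of array numbers as a block, the 3' to 5' signal and the array SD as covariates, no dim genes, the B6 low-fat groups only for tissues, and leaving out each array. The run block was not fitted in muscle, nor for liver contrasts with the B6 low-fat group, whose arrays form a run of their own. The probe set brightest over all arrays and the fat arrays without a high 3' to 5' signal were added after the data were seen.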

Additional observations from a re-analysis of the deposited data

Results flagged for a closer look

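The highest or lowest array of a group was set against Dixon's 95% limit for 14 measures of the members and arrays in the 9 groups of 4 arrays. Of 126 tests 11 passed, and chance passes about 1 in 20. In B6 high-fat liver, replicate 13 was the highest for Psmb9 (9.70) and Psmb10 (9.18), and replicate 15 the lowest for Psmb1 (8.57). In B6 low-fat liver, replicate 2 was the lowest for Psmb6 (9.31). Muscle of 129S6 mice on the low-fat diet gave 6, all from replicate 9, the lowest of its group each time: Psme1 (5.47), Psmb1 (8.28), Psmb3 (7.14), Psmd11 (8.55), the median of the 20S core genes (7.23) and the array SD (1.57). The median of the cap genes was lowest in B6 high-fat muscle on replicate 7 (7.04).

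The diet differences of B6 and 129S6 mice differed by limma's interaction test for 10 gene and tissue pairs. In liver B6 minus 129S6 was -0.77 for Psmb1, -0.67 for Psmb3, -0.77 for Psmb6, -0.67 for Psmd13, -0.64 for Psme3 and -0.75 for Psmg2. In muscle it was -3.04 for Psma2, -1.70 for Psmb4, -2.56 for Psmb6 and -1.24 for Psmb8, and the B6 high-fat arrays there are those that stood apart in spread.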

How the results depend on the processing

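The report gives the counts of called members among 46. With the array SD as a covariate they were 5, 2 and 6 in liver for diet in B6, strain on the low-fat and strain on the high-fat diet, 1, 3 and 1 in muscle for diet in B6, strain on the high-fat diet and the difference between strains, and 1 in fat for diet in 129S6. In the same order, 12.2%, 5.43% and 10.2% of all genes were called in liver, 0.739%, 1.61% and 0.0485% in muscle and 1.07% in fat. Quantile normalization gave 8, 2 and 2 in liver for strain on the low-fat diet, strain on the high-fat diet and the difference between strains, and 7 for that difference in muscle. Beside these, 10.9%, 5.66%, 3.61% and 3.13% of all genes were called. A fit of only the 2 groups gave 4 in liver for strain on the high-fat diet (11.1% of all genes called). In fat it gave 8 for diet in 129S6 (2.25%) and 4 for strain on the low-fat diet (9%). For liver strain on the high-fat diet the run block gave 1 (1.54% of all genes called) and the 3' to 5' covariate 4 (8.54%). That covariate gave 19 (16.3%), and genes without the dimmest 8 of 42 members (7.13%), for the muscle difference between strains. Without fat arrays of high 3' to 5' signal the fat counts were 3 for diet in B6 (2.21% of all genes called) and 1 for strain on the low-fat diet (8.16%). That setting leaves 1 array of 129S6 fat on the high-fat diet, so counts that use this group are not given. The B6 low-fat groups alone gave 8, 17 and 17 for liver minus muscle, fat minus liver and fat minus muscle, beside 36.5%, 39.4% and 33.8% of all genes called.

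Leaving out 1 array gave 10 to 22, 8 to 27, 0 to 3 and 3 to 11 in liver for diet in B6, strain on low-fat, strain on high-fat and the difference between strains. In muscle it gave 1 to 29 for diet in B6, 16 to 34 for strain on high-fat and 0 to 16 for the difference, and in fat 0 to 15 for diet in 129S6 and 0 to 12 for strain on high-fat. It gave 31 to 35, 9 to 12 and 30 to 36 for the tissues, and 0 to 0 for the other counts, which were 0.

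Over 167 named differences, 11 values under other settings reversed: Psmb5 for liver strain on low-fat (-0.10, probe set brightest over all arrays); with the array SD, Psmc2 (0.37) and Psma4 (0.13) for diet in B6 muscle and Psma4 (0.08) for strain on high-fat; with B6 low-fat groups only, in fat minus liver Psmb8 (-0.12), Psme1 (-0.90), Psmd14 (-0.26), Psma2 (-0.10), Psme3ip1 (-0.22) and Psmd10 (-0.05), and in fat minus muscle Psma2 (-0.26). A change of sign was counted only where the main fit or the other setting gave a call. Of the rest, 982 stayed on the same side of the threshold, 67 lost and 25 gained a call. When 1 array was left out, 2834 values stayed on the same side, 169 lost and 27 gained a call, and no called difference turned. Differences uncalled in both fits did turn in places, as given above for Psmb10 in B6 fat. Beyond what each setting does by construction, the cause was not tested. No paired analysis was possible because the groups compared within a tissue share no replicate numbers.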
